A study of Mus musculus with 8 samples.

Results

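The alpha-1 subunits of voltage-gated calcium channels were examined in ribosome-associated RNA of parvalbumin-positive (PV+) interneurons, which are fast-spiking inhibitory neurons. The RNA came from mice in which a sparse fraction of the PV+ interneurons carried an excitatory designer receptor. The members were chosen by gene name, as the alpha-1 genes Cacna1a, Cacna1b, Cacna1c, Cacna1d, Cacna1e, Cacna1g, Cacna1h and Cacna1i. All 8 were found among the 45706 genes of the deposited tables, and all 8 were among the 17495 genes that passed the filter on low counts. The remaining alpha-1 genes, Cacna1f of the retina and Cacna1s of skeletal muscle, had mean levels of 0.177 and 0.244 TPM (the deposited unit of transcript abundance, reads per transcript length scaled to a fixed sum) and did not pass it.

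All 8 samples came from PvalbFlp/+;Neurod6Cre/+ mice infected at postnatal day 1, per the labels, with an adeno-associated virus (AAV) holding the construct flox-fdio-HA-RPL10a-T2A-myc-hM3Dq. Flp recombinase in Pvalb-expressing cells turns this vector on, and Cre in Neurod6-expressing pyramidal cells turns it off. The vector, driven by the human synapsin promoter, makes an HA-tagged ribosomal protein, by which ribosomes and their bound RNA were pulled down, together with hM3Dq, a receptor that excites the cell when clozapine-N-oxide (CNO) binds it. The mice were between 42 and 70 days old, the range that the methods give for treatment, and received 5 injections over about 48 h. For the mice of the pulldown itself, the methods give a range that starts slightly later. The 4 CNO samples came from mice given CNO at 1 mg per kg, and the 4 vehicle samples from mice given vehicle. The receptor was therefore present in both groups, and neither group was without virus. Infected tissue of the primary somatosensory cortex from 4 brains was pooled for each sample, so the spread between samples is one between pools. No sample of unpurified tissue was among those analysed here, so whether a transcript was concentrated by the pulldown was not tested. In such bulk samples, fewer cells of a type and less RNA per cell cannot be told apart.

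The alpha-1 subunit forms the pore, the voltage sensor and most drug-binding sites of a calcium channel, and a cell's set of alpha-1 genes determines which calcium currents it can make. High-voltage-activated channels need a strong depolarization and comprise the L-type Cav1 subunits, here Cacna1c and Cacna1d, which act mainly on cell bodies and dendrites and couple to gene expression, and the Cav2 subunits. Of the latter, Cacna1a makes the P/Q-type current and Cacna1b the N-type current, which trigger transmitter release, and Cacna1e makes the R-type current. Low-voltage-activated T-type Cav3 subunits, Cacna1g, Cacna1h and Cacna1i, open near rest and shape bursts and rebound firing. Transmitter release from PV+ basket cells is known to rely mainly on P/Q-type channels.

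The pore of each alpha-1 protein is lined by 4 loops, each with 1 acidic residue that binds calcium. The coding stretch around this residue in the last loop, loop IV, is shown for all 8 genes because it separates the high-voltage from the low-voltage members in the DNA itself. Capitals mark the codon of the acidic residue, and each stretch is written 5′ to 3′ on the coding strand, from the GENCODE M21 transcripts of GRCm38.
Cacna1a: agcgccacaggaGAAgcgtggcacaac
Cacna1b: agtgccactgggGAGgcctggcatgag
Cacna1e: agtgccacggggGAGgcttggcaggag
Cacna1c: tgtgccaccggaGAGgcctggcaggac
Cacna1d: tgtgcaacagggGAAgcctggcaggag
Cacna1g: gtctccactggtGACaactggaatggt
Cacna1h: gtgtccactgggGACaactggaatggg
Cacna1i: gtctccacaggcGATaactggaatggg
The marked codon encodes glutamate in the 5 high-voltage members and aspartate in the 3 low-voltage members. In loop III the codons divided in the same way, and in loops I and II all 8 genes had a glutamate codon.

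On GRCm38 these stretches lay within a single coding exon each, counted along the transcript read. They were at chr8:84611599-84611625 on the plus strand in exon 35 of Cacna1a, at chr2:24635213-24635239 on the minus strand in exon 36 of Cacna1b and at chr1:154425975-154426001 on the minus strand in exon 37 of Cacna1e. For the L-type genes they were at chr6:118614050-118614076 in exon 36 of Cacna1c and at chr14:30075944-30075970 in exon 36 of Cacna1d, both on the minus strand. For the T-type genes they were at chr11:94416415-94416441 on the minus strand in exon 32 of Cacna1g, at chr17:25377771-25377797 on the minus strand in exon 31 of Cacna1h and at chr15:80388485-80388511 on the plus strand in exon 31 of Cacna1i. Although the proteins are related, between 0.052% (Cacna1a) and 0.885% (Cacna1e) of the 31-base words in a member's transcripts also occurred in another gene's. Cacna1e, Cacna1g and Cacna1i overlapped no other annotated gene. Cacna1c overlapped Dcp1b, Cacna1d overlapped Chdh and Dcp1a, Cacna1h overlapped Tpsg1, and Cacna1a and Cacna1b each overlapped 1 noncoding gene on the other strand. Counting by strand was not stated, so reads from overlapping exons cannot be assigned with certainty.

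The libraries held 44064161 to 49413273 reads assigned to genes, so that 3 reads, the limit that a count of 0 allows, corresponded to 0.0607 to 0.0681 CPM (reads scaled to library size). Every member had between 313 and 5612 reads in every library. Fos, an activity-induced transcription factor gene, stood at 49.1 ± 16.4 CPM (SD, n = 4) in CNO samples and 12.9 ± 2.01 in vehicle samples, with no overlap (log2 fold change 1.93 ± 0.22 SE, adjusted p = 0.0520, edgeR quasi-likelihood test). The other activity-induced genes examined were Fosb, at 1.88 ± 0.26 (adjusted p = 0.123), and Npas4, at 0.15 ± 0.28 with overlapping groups (adjusted p = 0.894, same test). The libraries were not pure: the 9 PV interneuron markers summed to 2443 to 3831 TPM in CNO samples and 1156 to 3046 TPM in vehicle samples, and the 9 pyramidal cell markers, among them Slc17a7 and Camk2a, to 1387 to 1911 TPM and 1571 to 2228 TPM. No PV or pyramidal marker was at 0. The library of vehicle replicate 1 stood apart, with the lowest PV sum and the highest pyramidal sum of all 8. All 9 PV markers had a higher mean in CNO samples (median log2 fold change 0.43) and 8 of 9 pyramidal markers a lower one (median -0.14). An unadjusted p under 0.05 was found for the PV marker Gad2 (log2 fold change 0.52) and for 0 pyramidal markers. It was also found for the marker Lamp5 of other interneurons (-0.37) and the microglial marker P2ry12 (-0.38). Each of these 3 genes had an adjusted p of 0.817 (edgeR quasi-likelihood test). By that test 4.09% of all genes had an unadjusted p under 0.05, and 49.6% a log2 fold change below 0. The markers of astrocytes had a higher mean in CNO samples for 1 of 5 genes, those of oligodendrocytes and microglia for 0 of 4 each, those of blood vessels for 4 of 4 and those of other interneurons for 3 of 6. Alpha-1 genes are expressed by pyramidal cells too, and the part of this difference in the results that follow was not tested except where a value is given.

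Cacna1a was by far the most abundant alpha-1 transcript. Its level per length was 53.7, 61.2, 48.4 and 37.1 TPM in CNO replicates 1 to 4 and 66.9, 56.2, 55.4 and 56.7 TPM in vehicle replicates 1 to 4. It ranked first in all 8 samples, and its lowest sample lay above the highest sample of any other member. Its mean over the 8 samples, 54.5 ± 8.84 TPM (SD), was higher than that of 79.6% of the genes tested.

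Cacna1e came next in all 8 samples, at 14.9, 19.7, 10.6 and 9.41 TPM with CNO and 27.1, 21.8, 12.6 and 13.2 TPM with vehicle (mean 16.2 ± 6.16, SD over the 8 samples). The other 6 members lay close together. Cacna1c had a mean of 8.27 ± 2.51 TPM, Cacna1g 6.07 ± 2.14, Cacna1b 5.59 ± 0.85, Cacna1i 4.92 ± 0.89, Cacna1h 4.27 ± 0.69 and Cacna1d 3.36 ± 0.61. Of these neighbours, Cacna1c exceeded Cacna1g in 6 of 8 samples, Cacna1g exceeded Cacna1b in 5, Cacna1b exceeded Cacna1i in 6 and Cacna1i exceeded Cacna1h in 6. Their ranges overlapped, so this order was not resolved beyond the spread between samples. Cacna1h exceeded Cacna1d in TPM in all 8 samples, although their ranges overlapped as well. In CPM, which are not per length, this order was reversed in each sample (6.68 to 10.7 for Cacna1h, 10.8 to 17.2 for Cacna1d). The transcript length behind the TPM of each gene, explained below, was 4160 to 5536 bases for Cacna1h and 9356 to 9419 for Cacna1d. The N-type gene Cacna1b shares with Cacna1a the role of triggering release. By TPM it was among the low members, at 4.53 to 6.56 TPM against 37.1 to 66.9 TPM for Cacna1a. In CPM the values were 16.7 to 22.8 against 88.3 to 113. The mean CPM of Cacna1b, 18.7 with CNO and 21.0 with vehicle, was above that of every member except Cacna1a and Cacna1e. The lengths behind the TPM were 7050 to 9632 bases for Cacna1b and 3974 to 5102 for Cacna1a.

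**Figure D1:**
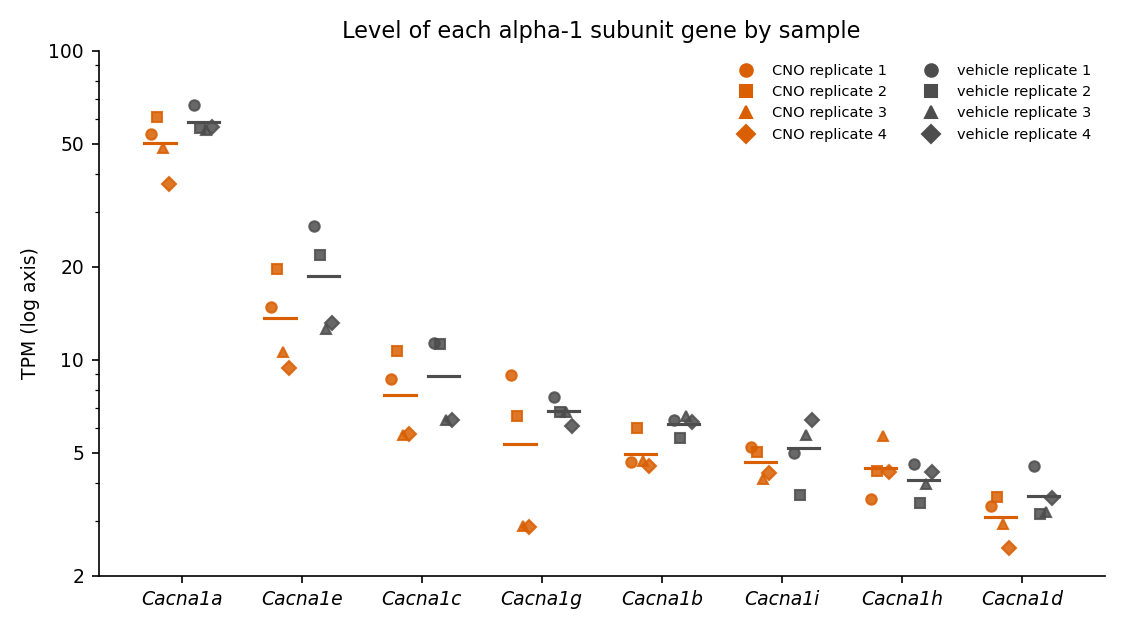
Level of each alpha-1 gene in TPM on a log axis, with 1 point per sample, orange for CNO and grey for vehicle. Cacna1a lies between 37.1 and 66.9 TPM, above every other member, and Cacna1e comes next in every sample.

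As a share of the summed alpha-1 TPM of its sample, Cacna1a made up 52.2% to 57.0% in CNO samples (53.5 ± 2.36, SD, n = 4) and 50.1% to 55.1% in vehicle samples (52.6 ± 2.83). Cacna1e made up 14.2% ± 1.90 with CNO and 16.3% ± 4.22 with vehicle. By class, the 3 Cav2 genes held 73.1% ± 1.77 with CNO and 74.5% ± 0.59 with vehicle, the 2 L-type genes 11.4% ± 0.89 and 11% ± 1.65, and the 3 T-type genes 15.5% ± 1.56 and 14.5% ± 2.15. The ranges of the groups overlapped for each of the 3 classes. In shares of CPM, which are not per length, Cacna1a made up 44.2% with CNO and 41.7% with vehicle. The order of the groups turned for the L-type genes, at 12.2% and 12.9%. It also turned for Cacna1g, at 5.44% with CNO and 6.10% with vehicle in TPM, but 4.30% and 3.56% in CPM. The CPM shares of Cacna1g did not overlap, at 3.78% to 4.71% with CNO and 3.27% to 3.74% with vehicle. Shares were not tested. The summed level itself was 103, 117, 85 and 70.8 TPM in the CNO samples and 133, 112, 101 and 103 TPM in the vehicle samples. In CPM it was 256, 256, 236 and 200 with CNO and 277, 252, 251 and 260 with vehicle. CNO replicates 1 and 2 lay inside the vehicle range in CPM. CNO replicate 4 had the lowest sum and vehicle replicate 1 the highest, which were also the samples with the highest and the lowest PV marker sums.

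**Figure D2:**
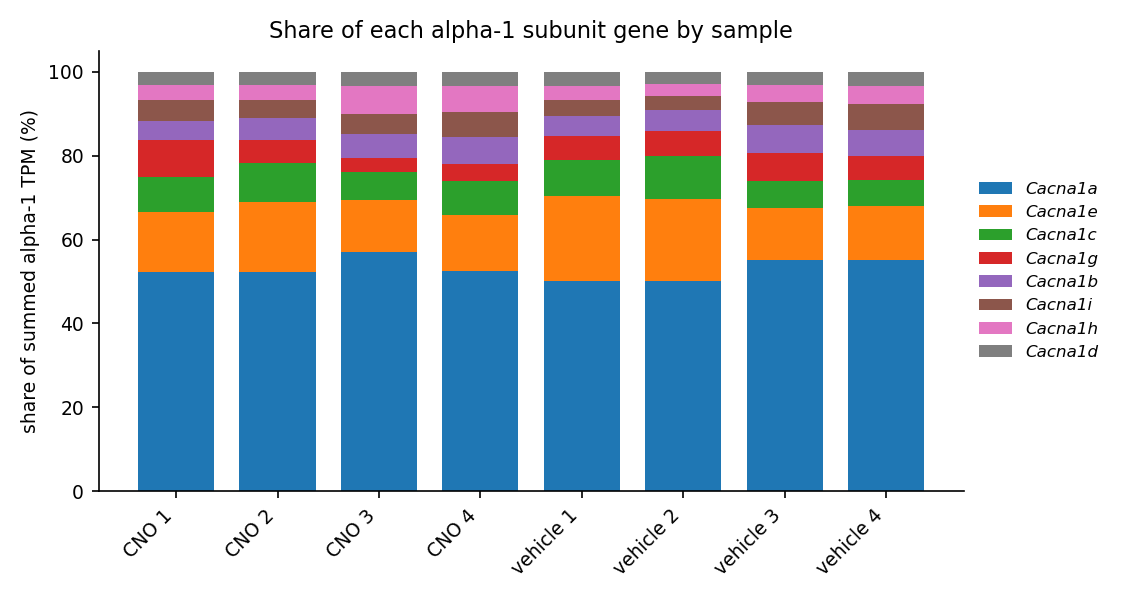
Share of each alpha-1 gene in the summed alpha-1 TPM of each sample, in percent, with 1 stacked bar per sample. Cacna1a fills 50.1% to 57.0% of every bar, and the bars of CNO and vehicle samples overlap in each class.

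Whether 48 h of CNO changed the alpha-1 transcripts was tested in a fit across all genes. No member was called by the rule of adjusted p under 0.05, fold above 1.5 and mean TPM above 1, and 0 of the 8 had an unadjusted p under 0.05 (edgeR quasi-likelihood test). By that test 0.00% of the 17495 genes were called and 4.09% (716 genes) had an unadjusted p under 0.05. With DESeq2, 10 genes were called, and with the edgeR likelihood ratio test on robust dispersions, 12, of which 0 were members in each case. Of the members, 6 had a log2 fold change below 0, against 49.6% of all genes, and their median was -0.11 against 0.0014 over all genes. In 0 of the 8 did the normalized CPM of the groups fail to overlap, against 2.42% of all genes.

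Among the Cav2 genes, Cacna1a had 111, 108, 112 and 88.3 CPM in the CNO samples and 107, 103, 110 and 113 CPM in the vehicle samples. The groups overlapped throughout apart from CNO replicate 4, the lowest of the 8. Its log2 fold change was -0.05 ± 0.10 (SE, 95% interval -0.27 to 0.17), with an adjusted p of 0.895 (edgeR quasi-likelihood test) and an exact two-sided permutation p of 0.714 over the 70 assignments of samples to groups. Without CNO replicate 4 the estimate was 0.015.

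Cacna1b, the N-type gene, had 20.3, 18.5, 19.4 and 16.7 CPM with CNO and 21.4, 19.3, 20.6 and 22.8 CPM with vehicle. The highest value was a vehicle sample and the lowest a CNO sample, and the ranges overlapped between 19.3 and 20.3 CPM. The log2 fold change was -0.17 ± 0.10 (SE, 95% interval -0.38 to 0.05; adjusted p = 0.817, edgeR quasi-likelihood test). Per length the separation was wider: in TPM the 4 CNO values were 4.66, 5.996, 4.70 and 4.53 and the 4 vehicle values 6.38, 5.57, 6.56 and 6.30, which overlapped because of CNO replicate 2 alone, and the difference on the log2(TPM + 0.1) scale was -0.32 (adjusted p = 0.747, limma). The median difference of all genes on that scale was -0.077.

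Cacna1e, the R-type gene, showed the largest difference among the members in the fit on reads. It had 51.7, 57.8, 40.9 and 37.4 CPM with CNO (47.0 ± 9.44, SD) and 74.95, 65.3, 50.3 and 51.2 CPM with vehicle (60.4 ± 11.9, SD). CNO replicates 1 and 2 lay among the vehicle values, and CNO replicates 3 and 4 below all of them. The log2 fold change was -0.36 ± 0.17 (SE, 95% interval -0.73 to 0.0051), the unadjusted p 0.0527 and the adjusted p 0.817 (edgeR quasi-likelihood test), and the exact permutation p was 0.171. The value moved with the markers: with an index of PV minus pyramidal marker expression in the model it was -0.14, and without vehicle replicate 1 it was -0.25. On both TPM scales, and with this index or a surrogate variable in the model, the difference of Cacna1g was larger in size.

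Of the L-type genes, Cacna1c had 18.4, 18.8, 14.1 and 13.4 CPM with CNO and 21.5, 20.6, 17.6 and 16.5 CPM with vehicle. As for Cacna1e, the 2 highest samples were vehicle replicates 1 and 2 and the 2 lowest CNO replicates 3 and 4. The log2 fold change was -0.24 ± 0.14 (SE, 95% interval -0.55 to 0.076; adjusted p = 0.817, edgeR quasi-likelihood test), and -0.10 with the marker index in the model. Cacna1d had 14.3, 14.1, 12.4 and 10.8 CPM with CNO and 17.2, 12.7, 13.5 and 14.3 CPM with vehicle, where only vehicle replicate 1 exceeded every CNO sample. Its log2 fold change of -0.16 ± 0.13 (SE, 95% interval -0.45 to 0.13; adjusted p = 0.817, same test) was -0.069 without that library and -0.023 with the marker index.

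Of the T-type genes, Cacna1g had 12.1, 11.9, 8.93 and 8.08 CPM with CNO and 9.08, 9.25, 8.97 and 9.73 CPM with vehicle. The 4 vehicle samples lay within 1 CPM of each other, with CNO replicates 1 and 2 above and CNO replicates 3 and 4 below them all. The log2 fold change was 0.15 ± 0.14 (SE, 95% interval -0.17 to 0.47; adjusted p = 0.818, edgeR quasi-likelihood test), and with 1 library left out it ranged from 0.060 without CNO replicate 1 to 0.24 without CNO replicate 4. Cacna1h had 8.31, 8.77, 10.7 and 8.44 CPM with CNO and 8.16, 6.68, 8.97 and 10.1 CPM with vehicle, a log2 fold change of 0.09 ± 0.15 (95% interval -0.24 to 0.42). Cacna1i, a T-type subunit restricted largely to the nervous system, had 20.7, 18.4, 18.1 and 16.9 CPM with CNO and 17.6, 15.8, 21.3 and 21.9 CPM with vehicle, a log2 fold change of -0.05 ± 0.12 (95% interval -0.32 to 0.22). The groups overlapped for both, and with 1 library left out at a time the sign of each turned (-0.017 to 0.19 for Cacna1h and -0.14 to 0.019 for Cacna1i).

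**Figure D3:**
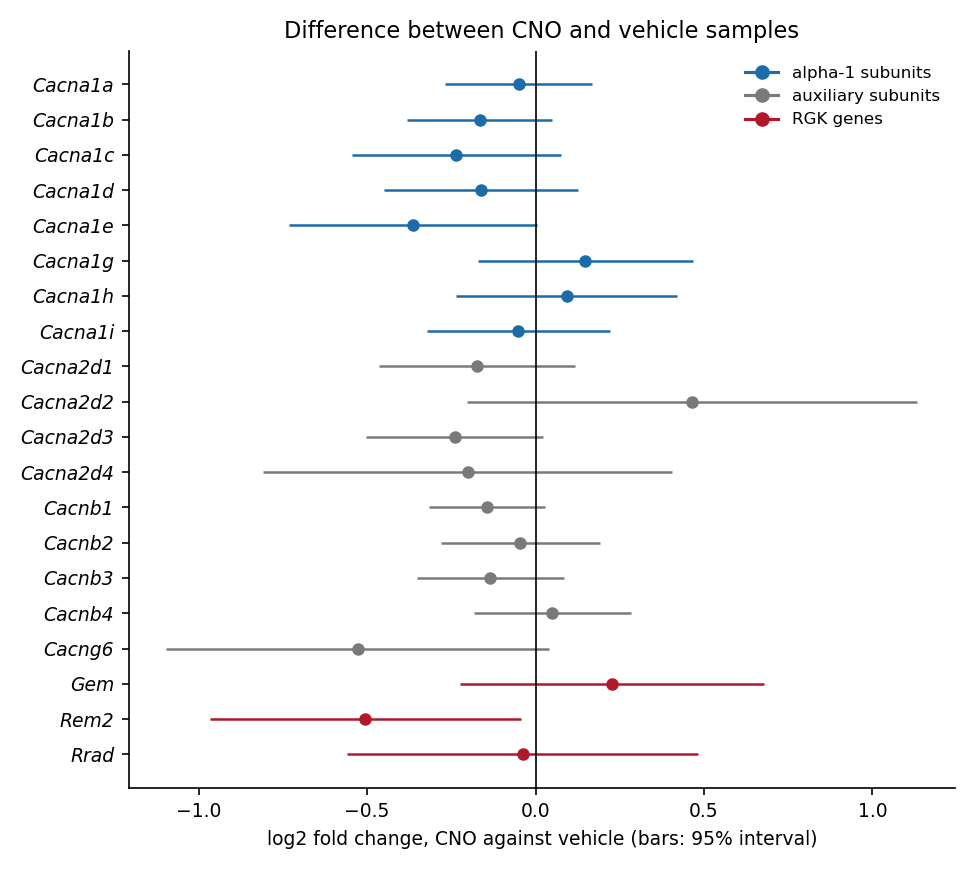
Log2 fold change of CNO against vehicle samples (x axis) for the 8 alpha-1 genes, 9 auxiliary subunit genes and 3 genes of the RGK family, with 95% intervals from the edgeR quasi-likelihood fit. The intervals of all 8 alpha-1 genes include 0, with that of Cacna1e reaching from -0.73 to 0.0051, and of the genes drawn only that of Rem2 lies wholly below 0.

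The intervals of the read-based fit bound the size of a difference in reads, not in level per length. For the length-aware fits no interval was computed. In these, Cacna1g gave -0.43 on log2(TPM + 1) and -0.52 on log2(TPM + 0.1). It gave -0.30 with an offset for the transcript length of each sample, so its level per length is not bounded here. In reads, the fold threshold of the calls, 1.5, lay outside the intervals of Cacna1a, Cacna1b, Cacna1c, Cacna1d, Cacna1g, Cacna1h and Cacna1i in both directions. It lay inside that of Cacna1e in the downward direction.

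Cacna1e and Cacna1c differed with the replicate number. In both groups, replicates 1 and 2 had more Cacna1e and more Cacna1c than replicates 3 and 4, and across groups the 4 lower-numbered samples did not overlap the 4 higher-numbered ones (51.7 to 74.95 against 37.4 to 51.2 CPM for Cacna1e, and 18.4 to 21.5 against 13.4 to 17.6 CPM for Cacna1c). This held for 2 of the 8 members, against 9.41% of all genes tested. The labels give the numbers no meaning beyond naming the replicates. Within replicates 1 and 2 alone, the log2 fold change of Cacna1e was -0.37 (adjusted p = 0.995, edgeR quasi-likelihood test), and within replicates 3 and 4 alone it was again -0.37 (adjusted p = 0.563). Cacna1c gave -0.19 and -0.31. Within replicates 3 and 4 alone, 3 members (Cacna1c, Cacna1e and Cacna1i) had an unadjusted p under 0.05, beside 7.14% of all genes. Cacna1i gave -0.31 there (unadjusted p = 0.030, same test). With the 2 pairs of replicate numbers as a block, the unadjusted p of Cacna1e was 0.0015 and that of Cacna1c 0.017, and the adjusted p was 0.678 for both (edgeR quasi-likelihood test). In that fit 2 of the 8 members and 6.82% of all genes had an unadjusted p under 0.05, beside 4.09% of all genes without the block. The marker index did not divide the samples in this way: it was 1.18 and 0.42 in CNO replicates 1 and 2, 0.98 and 1.60 in CNO replicates 3 and 4, -0.76 and 0.58 in vehicle replicates 1 and 2, and 1.00 and 0.87 in vehicle replicates 3 and 4.

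**Figure D4:**
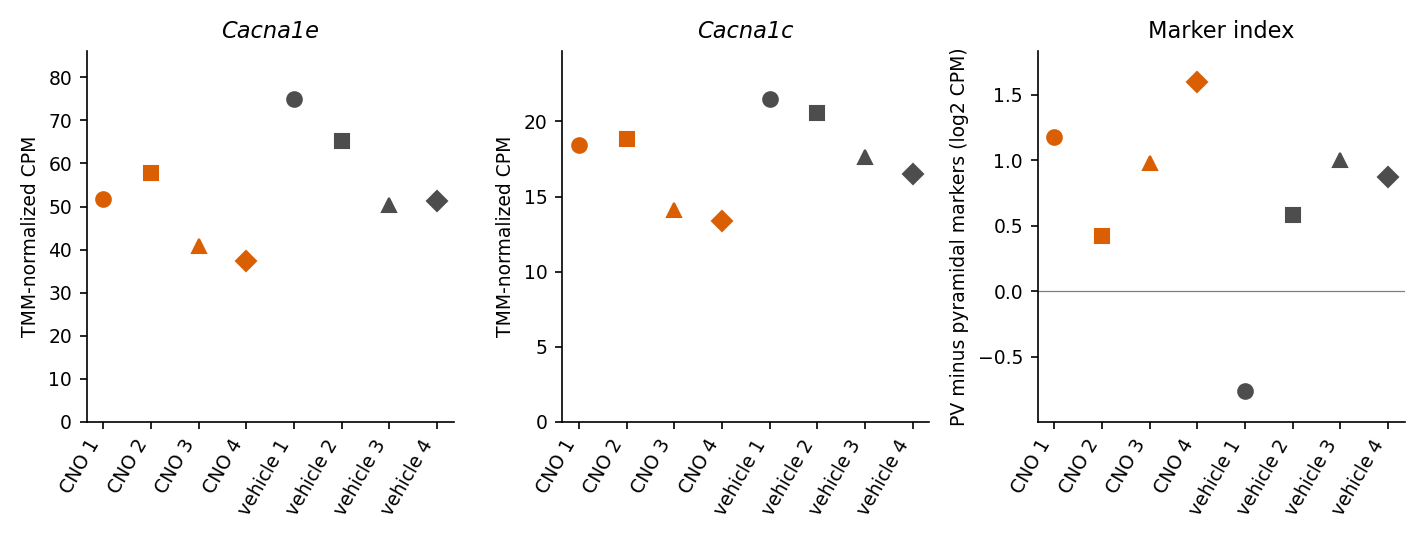
TMM-normalized CPM of Cacna1e (left) and Cacna1c (middle) and the PV minus pyramidal marker index in log2 CPM (right) in each sample, orange for CNO and grey for vehicle, with 1 symbol per replicate number. Replicates 1 and 2 lie above replicates 3 and 4 for both genes in both groups, while the index is lowest, at -0.76, in vehicle replicate 1.

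Cacna1c and Cacna1e also followed each other most closely: across the 8 samples, the Pearson correlation of their log2 CPM was 0.97, the highest of any pair of members. Cacna1a and Cacna1b had 0.80 and Cacna1d and Cacna1e 0.79, whereas Cacna1c and Cacna1h had -0.61. Among all genes tested with a mean TPM above 1, the one whose profile was most like that of Cacna1a was Stard9 (r = 0.97), and for Cacna1e it was Pcdh15 (0.99), for Cacna1c RP23-298M23.12 (0.99) and for Cacna1d Arnt (0.98). For Cacna1b it was Maml3 (0.96), for Cacna1h Rai1 (0.98), for Cacna1g Golga4 (0.95) and for Cacna1i Ptpn23 (0.95). These values are descriptions over 8 samples that share the groups, the marker content and the split by replicate number, and each closest gene was picked from many.

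Cacna1g was the one member whose difference in level turned direction when reads were divided by length. Its TPM was 8.94, 6.58, 2.89 and 2.87 in the CNO samples and 7.60, 6.78, 6.78 and 6.08 in the vehicle samples. CNO replicates 3 and 4 thus had less per length than any other sample, although their reads were close to those of the vehicle samples. The difference between the groups was 0.15 in log2 CPM, -0.43 on the log2(TPM + 1) scale (adjusted p = 0.749, limma) and -0.30 with an offset for the transcript length of each sample (adjusted p = 0.820, edgeR quasi-likelihood test), none of them past the threshold.

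The ratio of reads to TPM gives the transcript length that the authors' quantification used in each sample, after scaling on 550 genes with a single annotated transcript. For Cacna1g this apparent length was 2992, 4353, 6835 and 6022 bases in the CNO samples and 2961, 3182, 2965 and 3764 bases in the vehicle samples. CNO replicates 3 and 4 were the longest, and CNO replicate 1 was within the vehicle range. The longest was 2.31-fold the shortest, a larger span than in 99.9% of 11348 genes, whose median span was 1.06-fold and of which 0.291% exceeded 2-fold. In GENCODE M21 the protein-coding transcripts of Cacna1g run from 7523 to 8383 bases and its processed transcripts without an annotated protein from 434 to 4878 bases. The apparent lengths thus lay below those of every protein-coding transcript in all 8 samples. This was shared by Cacna1a (3974 to 5102 bases, shortest coding transcript 7503) and Cacna1c (4226 to 6192 bases, shortest 6462), while Cacna1d, at 9356 to 9419 bases, lay above its longest coding transcript of 8688 bases. Which transcripts the reads were assigned to was not analysed here, and the annotation behind the deposited values may differ. Among the other members the span was 1.25-fold to 1.47-fold, except for Cacna1d (1.01-fold).

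**Figure D5:**
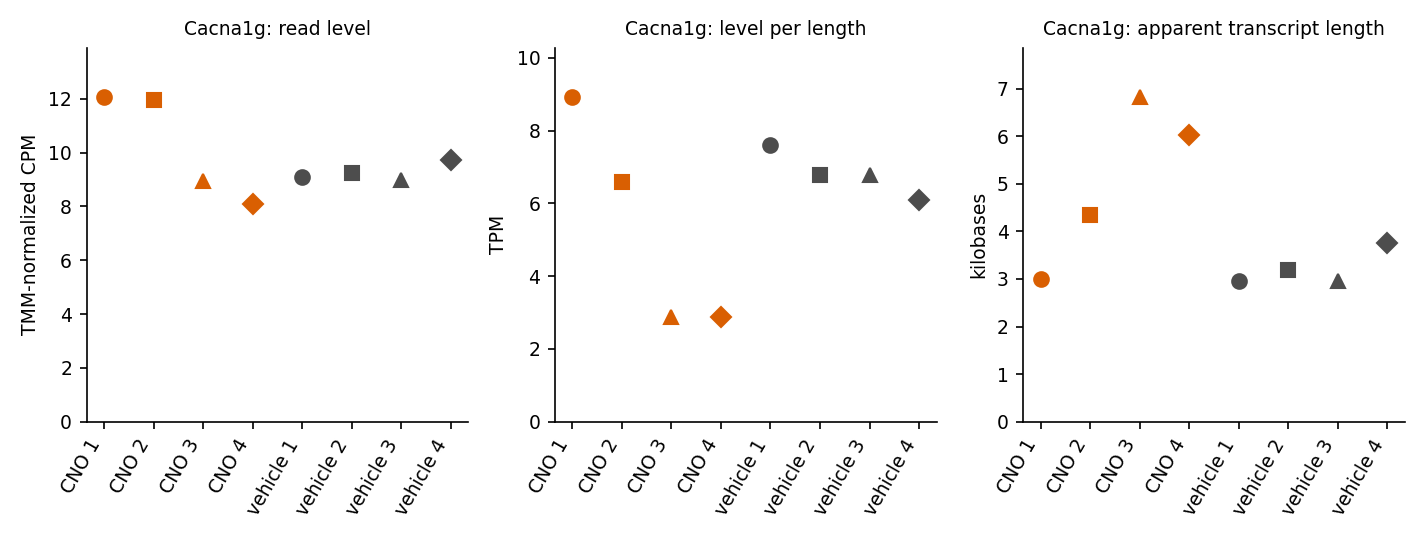
Cacna1g in each sample as TMM-normalized CPM (left), TPM (middle) and apparent transcript length in kilobases (right), orange for CNO and grey for vehicle, all axes from 0. CNO replicates 3 and 4 have the lowest TPM, 2.89 and 2.87, and the greatest lengths, 6835 and 6022 bases.

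The auxiliary subunits carry the alpha-1 subunit to the membrane and set its gating: the beta subunits bind it inside the cell, and the alpha-2-delta subunits outside. Of 10 auxiliary genes listed, 9 were tested, 0 were called and 0 had an unadjusted p under 0.05. Cacng1, a skeletal muscle gamma subunit, had a mean of 0.101 TPM and was not tested. Of the 9, 7 had a log2 fold change below 0 (median -0.14), beside 49.6% of all genes. Among the beta subunits Cacnb3 was the most abundant, at a mean of 136 TPM, with Cacnb4 at 73.7, Cacnb1 at 52.8 and Cacnb2 at 38.5 TPM. Their log2 fold changes were -0.13 ± 0.10 (SE) for Cacnb3, 0.05 ± 0.11 for Cacnb4, -0.14 ± 0.08 for Cacnb1 and -0.05 ± 0.11 for Cacnb2, and those of Cacnb4 and Cacnb2 changed sign under other scalings. With the marker index in the model Cacnb3 gave -0.059.

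Cacnb1 was the only auxiliary gene whose groups did not overlap, with 64.3 ± 2.36 CPM (SD, n = 4) in CNO samples and 71.1 ± 2.53 CPM in vehicle samples. That is 1 of 9 tested, against 2.42% of all genes. Its exact permutation p of 0.0286 is the smallest that 4 against 4 allow, while its adjusted p was 0.817 (edgeR quasi-likelihood test). Of the alpha-2-delta genes, Cacna2d3 had a mean of 36.1 TPM, Cacna2d1 14.6, Cacna2d2 8.09 and Cacna2d4 1.29, with log2 fold changes of -0.24 ± 0.12 (SE), -0.17 ± 0.13, 0.46 ± 0.30 and -0.20 ± 0.28. Cacna2d2, a subunit found in PV+ interneurons, gave -0.028 with the marker index in the model and 0.23 without vehicle replicate 1, its lowest sample. Cacna2d3 gave -0.085 with the index and -0.15 without vehicle replicate 1, and Cacna2d1 gave -0.039 with the index and -0.082 without CNO replicate 4. Cacng6, a gamma subunit, was low, at 22 to 56 reads and a mean of 1.12 TPM, with a log2 fold change of -0.53 ± 0.26 (SE).

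The RGK proteins are small GTPases that bind beta subunits and inhibit high-voltage-activated channels. Of 4 genes, Rem1, at 0.387 TPM, was not tested. Rem2 had 1.72, 3.04, 2.36 and 3.13 CPM with CNO and 4.34, 3.48, 3.53 and 3.21 CPM with vehicle. All 4 CNO samples lay below all 4 vehicle samples, if narrowly, and the log2 fold change was -0.51 ± 0.21 (SE). Of the 3 RGK genes tested, 1 had groups without overlap and 1 an unadjusted p under 0.05, against 2.42% and 4.09% of all genes. Rem2 had only 81 to 194 reads per library. Its unadjusted p was 0.0348 and its adjusted p 0.817 (edgeR quasi-likelihood test), and the unadjusted p was above 0.05 with the marker index in the model (0.103) and with any 1 of vehicle replicates 1 to 3 or CNO replicates 1 and 3 left out (0.0958 without vehicle replicate 1). Gem, which is induced by calcium entry in many cells, had 0.23 ± 0.20 and Rrad -0.04 ± 0.24, both in log2 fold change and SE.

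Of 20 genes for channel anchors and modulators, such as the active-zone RIM proteins and calmodulin, 19 were tested, 11 with a log2 fold change above 0 and 8 below, and 0 were called. Calm2, a calmodulin gene and the most abundant of the list at a mean of 2649 TPM, had 0.10 ± 0.16. Stac2, which binds L-type channels and slows their inactivation, was the 1 gene of the 19 with an unadjusted p under 0.05, against 4.09% of all genes. It had 80.7, 53.6, 68.6 and 87.4 CPM with CNO and 27.3, 53.4, 58.3 and 55.1 CPM with vehicle, so that vehicle replicate 1 was the lowest and CNO replicate 2 lay within the vehicle range. Its log2 fold change of 0.58 ± 0.23 (SE; unadjusted p = 0.0261, adjusted p = 0.817, edgeR quasi-likelihood test) was 0.38 without vehicle replicate 1 and 0.23 with the marker index. Of 5 genes for calcium-activated potassium channels, which calcium entry opens, 4 were tested, 1 with a log2 fold change above 0 and 3 below, and 0 had an unadjusted p under 0.05. Kcnma1, the large-conductance channel and the most abundant at 57.1 TPM, had -0.05 ± 0.09.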

How the data were processed

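Per the methods and labels, RNA bound to HA-tagged ribosomes was amplified with the SMARTer Ultra Low RNA kit and sequenced paired-end on an Illumina HiSeq. The submitters' processing notes name FastQC, Trim Galore, STAR, Salmon and GRCm38/mm10, with no versions. The authors deposited estimated counts per gene, which are not normalized, and TPM values per gene, scaled by transcript length in each sample. The deposited estimated counts were rounded to whole numbers, and genes with under 10 reads in 4 or more of the 8 samples were excluded, leaving 17495.

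CNO and vehicle samples, 4 against 4, were compared with the edgeR 4.0.16 quasi-likelihood test (R 4.3.3), TMM scaling and Benjamini-Hochberg adjustment over all genes tested. A gene was called at adjusted p under 0.05, fold above 1.5 and mean TPM above 1. SEs are the log2 fold change over the root of its F statistic. The common biological coefficient of variation was 0.183. CPM are TMM-normalized, and log2 CPM used a prior count of 2. Exact two-sided permutation tests ran over 70 assignments. P-values measure the spread between pools of animals. The self-test of the fit ran on counts with 200 genes changed.

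The text names all 8 members, all tested auxiliary and RGK genes, the activity genes, and from the lists of anchors, modulators and potassium channels those with an unadjusted p under 0.05 and the most abundant one of each. Marker genes with such a p are named beside their lists and were chosen after their values were seen. The members and lists were chosen with earlier results of these data known. For the marker index, 9 pyramidal markers' mean log2 CPM was subtracted from that of 9 PV markers. Within groups no 2 libraries agreed within sampling noise (chi-square per degree of freedom 18.2 to 167). Alternatives were shares of CPM in place of TPM, another test, scaling, filter or unit, blocks, a surrogate variable (sva 3.50.0), the marker index, leaving out each sample, DESeq2 1.42.0 and limma 3.58.1. The length offset and the fits within replicates 1 and 2 or 3 and 4 were chosen after seeing the data. Coordinates and sequences are from the GENCODE M21 annotation of GRCm38.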

Additional observations from a re-analysis of the deposited data

Results flagged for a closer look

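In 3 of the 34 groups of 4 values examined for the members, 1 sample lay farther from the other 3 than the threshold for a gap of that size allows. This rule flags about 1 in 20 groups by chance, which is 1.7 of 34. Cacna1a had 88.3 CPM in CNO replicate 4, with 107.8 to 111.8 CPM in the other CNO samples. In TPM, Cacna1a had 66.9 in vehicle replicate 1, with 55.4 to 56.7 in the other vehicle samples. Cacna1b had 5.996 TPM in CNO replicate 2, with 4.53 to 4.70 in the other CNO samples. Leaving out CNO replicate 4 turned the log2 fold change of Cacna1a from -0.05 to 0.015, and neither value was past the threshold.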

How the results depend on the processing

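Across 22 alternatives the count of members called was 0 throughout, with adjusted p-values of the members between 0.473 and 1 (edgeR, DESeq2 or limma). Cacna1b, Cacna1c, Cacna1d and Cacna1e kept a value below 0 in each, Cacna1e between -0.48 and -0.14. In the main fit 0 members had an unadjusted p under 0.05. Cacna1e had one by the likelihood ratio test (0.023), and by edgeR with library size only (0.044) or no low-count filter (0.036). It also had one without CNO replicate 2 (0.017), vehicle replicate 3 (0.030) or vehicle replicate 4 (0.037), and in fits by replicate number. Cacna1b had one on log2(TPM + 0.1) (0.0487, limma) and with the length offset (0.040, edgeR). Of all genes, 4.06% to 9.63% had one in these fits. Over all genes, 0 were called by the quasi-likelihood test, 12 by the likelihood ratio test on robust dispersions, 10 by DESeq2, 4 without a filter on low counts, 3 with a block of replicates 1 and 2 against 3 and 4, 11 within replicates 3 and 4 alone, and 0 to 2 with 1 sample left out, the 2 without CNO replicate 1. The cause was not tested.

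With the replicate number as a replicate block, 0 genes were called, Cacna1e gave -0.37 (unadjusted p = 0.0080, edgeR) and Cacna1c -0.24 (0.042). In that fit 4.37% of all genes had an unadjusted p under 0.05. Same-numbered samples did not deviate together (correlations -0.019, -0.14, 0.13 and 0.26), so the numbers were not taken to pair samples. Unadjusted p-values crossed 0.05 also for Rem2 (0.056) and Cacng6 (0.044), and no adjusted call of a gene changed.

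Some log2 fold changes turned sign, none past the threshold. On log2(TPM + 1), log2(TPM + 0.1) and with the length offset, Cacna1g gave -0.43, -0.52 and -0.30 and Cacnb2 0.011, 0.012 and 0.093, and Cacnb4 gave -0.036 on both TPM scales and -0.0053 with library size only. With a surrogate variable and the marker index, Cacna2d2 gave -0.012 and -0.028, Cacna2d4 0.039 and 0.058, Cacnb2 0.058 and 0.069, Cacnb4 -0.043 and -0.045, and Calm2 -0.095 and -0.10. Within replicates 1 and 2, Cacna1a gave 0.038, Cacna1i 0.21 and Kcnma1 0.075, and within replicates 3 and 4 Cacna1g -0.14, Cacnb2 0.035 and Rrad 0.085. With 1 sample left out, Cacna1a ranged from -0.096 to 0.015, Cacna1h from -0.017 to 0.19, Cacna1i from -0.14 to 0.019, Cacna2d4 from -0.38 to 0.025, Cacnb2 from -0.099 to 0.046, Rrad from -0.22 to 0.045, Calm2 from -0.014 to 0.20 and Npas4 from -0.072 to 0.32. The median of all genes was -0.063 and -0.077 on the TPM scales.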
